A study of Homo sapiens with 6 samples.

Results

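ATP-binding cassette (ABC) transporters are membrane proteins that use ATP to move lipids, bile salts, drugs, conjugates, peptides or ions across membranes. In the liver they load bile, move cholesterol to lipoproteins and extrude drugs and their conjugates, while the proteins of subfamilies E and F have no membrane domain and work on the ribosome. The family was taken as every gene whose array cluster carried exactly 1 symbol made of ABC, a letter from A to G and a number. This gave 42 genes of the 18372 with a tested cluster, namely 12 of subfamily A, 8 of B, 10 of C, 3 of D, 1 of E, 3 of F and 5 of G. The 42 genes had 46 clusters, and 1 cluster stood for each gene, the one with the highest mean over the arrays. The pseudogene ABCC13 was left out.

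The cells were HepG2, an established human hepatoma line that keeps many hepatocyte functions. Untreated cells (3 arrays) were compared with cells given 50 µg/ml of the water extract of *Barringtonia racemosa* leaf for 24 h (3 leaf-treated arrays). The labels give all cells the same medium, with foetal bovine serum, penicillin and streptomycin, and whether the untreated cells received a vehicle is not given in the sources used here. Gene expression was read on Affymetrix Human Gene 1.0 ST arrays as log2 expression values, so a difference of 1 is a doubling of signal. The labels call the replicates biological but do not say whether they were separate cultures, so the spread behind each p may be technical. HepG2 is a tumour line grown without other liver cells, so its levels are not those of liver.

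No ABC gene differed between leaf-treated and untreated HepG2 cells at an adjusted p under 0.05 (limma, Benjamini-Hochberg over 19291 clusters), and 0.00518% of all tested clusters did. Transcripts of *ABCE1*, the ribosome recycling factor, were 18.9% lower and those of *ABCG8*, a subunit of the hepatic sterol exporter, were 15.4% lower after leaf treatment, both at an unadjusted p under 0.05. *ABCA7*, a phospholipid transporter, was 18.9% higher at the same threshold. The untreated mean of *ABCA7* (3.25) was below the background level of 3.28 described below. The 2 genes that were lower compare with 5.9% of all tested clusters and the 1 that was higher with 3.87%, so these counts are close to the background of the arrays. The series design called a gene at 1.5 fold or more and an unadjusted p under 0.05, and no member met both, against 0.84% of all clusters.

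The family as a whole lay at the centre of the data. The median log2 fold change of the 42 genes was 0.0053, with 22 above 0 and 20 below, beside 0.011 over all tested clusters. The lowest was -0.30 in *ABCE1* and the highest 0.30 in *ABCB8*. For 40 of the 42 genes the 95% interval of the difference stayed inside a change of 1.5 fold in either direction, and it went beyond that for *ABCB8* and *ABCF2*. The interval reached 0.19 to either side on the log2 scale for the median gene and 0.50 for the widest. These intervals are unadjusted, so a larger difference could still miss the adjusted threshold, as *ABCE1* did at -0.30 (limma adjusted p = 0.41).

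**Figure D1:**
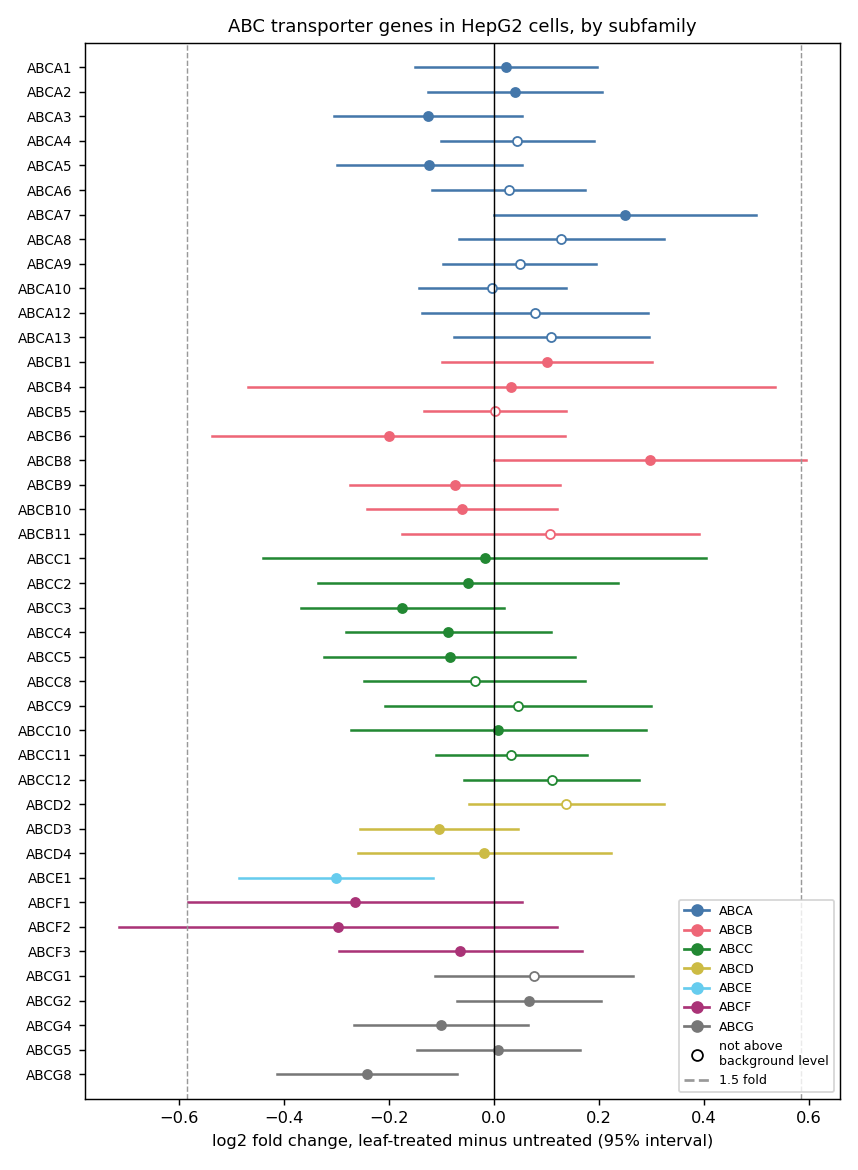
Log2 fold change of the 42 ABC genes, leaf-treated minus untreated, on the x axis, with the 95% limma interval as a line, the genes ordered by subfamily and coloured by it. Open circles mark the 15 genes not above the level of olfactory receptor clusters, and dashed lines mark a change of 1.5 fold. The intervals of *ABCE1* and *ABCG8* lie below 0, that of *ABCA7* lies just above it, and all others include 0.

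The arrays gave no detection calls, so 357 olfactory receptor clusters, whose genes are read mainly in the nose, stood in for background. Of the 42 ABC genes, 27 had a mean above the 95th percentile of those clusters (3.28), and 15 did not, namely *ABCA4*, *ABCA6*, *ABCA8*, *ABCA9*, *ABCA10*, *ABCA12*, *ABCA13*, *ABCB5*, *ABCB11*, *ABCC8*, *ABCC9*, *ABCC11*, *ABCC12*, *ABCD2* and *ABCG1*. A low value cannot be read as absence, because each cluster has its own probes. Hepatocyte markers were measured for 8 of the 9 listed and all 8 lay above this level. Of the blood markers 3 of 4 (*PTPRC*, *CD3E*, *CD14*), of the endothelial 3 of 4 (*PECAM1*, *CDH5*, *KDR*) and of the fibroblast 1 of 5 (*LUM*) were not above it. No marker of another cell type passed an unadjusted p under 0.05. Their mean log2 values on the untreated and leaf-treated arrays were 2.95 to 3.11 and 3.02 to 3.13 for blood, 3.11 to 3.22 and 3.08 to 3.32 for endothelium, and 3.29 to 3.42 and 3.33 to 3.58 for fibroblasts. The 4 of 6 squamous markers measured were all above the level, at 4.11 to 4.19 and 4.20 to 4.45. All 4 had a log2 fold change above 0, as had 10243 of all 19291 clusters, and their median was 0.24. It was 0.19 after quantile normalization, which gives every array the same distribution. The median difference was 0.37, -0.02 and 0.37 on leaf-treated arrays 1, 2 and 3. The part of these markers in the results was not tested.

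The leaf-treated arrays differed among themselves in a way that touches the family. The range from the 10th to the 90th percentile of all tested clusters was 4.14 and 4.12 on leaf-treated arrays 1 and 3, against 4.42 on leaf-treated array 2 and 4.31 to 4.43 on the untreated arrays. Clusters with a mean of 5 to 7 had a median log2 fold change of -0.09, those of 7 to 9 had -0.12, and those up to the olfactory receptor level had 0.04. Clusters between that level and a mean of 5 also had 0.04. After quantile normalization, which gives every array the same distribution, these medians were, in the same order, -0.0030, -0.0067, 0.0051 and -0.011. The ABC genes had a median of -0.06 in the 27 genes above the olfactory receptor level and 0.05 in the 15 that were not, beside -0.02 and 0.04 for all clusters split the same way. Most of the 27 had a mean below 5, a level at which the median of all clusters was above 0. The part of the level of the genes in their median was not tested.

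Subfamilies E and F had the lowest medians of the family, -0.30 and -0.26. *ABCE1* splits the subunits of a terminated ribosome so that they can be used again. Its log2 values were 8.35, 8.27 and 8.30 on the untreated arrays and 7.90, 8.11 and 7.99 on the leaf-treated arrays. Every leaf-treated array lay below every untreated one. The difference was -0.30 ± 0.08 (SE, n = 3 and 3; limma adjusted p = 0.41), a 1.23 fold lower signal, and its rank was 310 of 19291 clusters by p. After quantile normalization the difference was -0.19, which stayed below the -0.0067 median of clusters of like level, and the groups still did not overlap. It passed an unadjusted p under 0.05 in all 17 alternative settings, 1 of which keeps only leaf-treated array 2, takes the spread from the untreated arrays and assumes that the lone array varies like them. The settings gave differences from -0.37 to -0.19 and adjusted p from 0.093 to 0.82 (limma, and an analysis of variance). In bulk RNA, fewer cells of a type and less RNA per cell cannot be told apart.

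The 3 genes of subfamily F lay on the same side of 0 without passing the test. *ABCF1* binds initiation factor eIF2 and ribosomes, and its values were 7.31, 7.44 and 7.40 untreated against 7.37, 7.14 and 6.86 leaf-treated, a difference of -0.26 ± 0.13 (limma adjusted p = 0.53). Leaf-treated array 1 overlapped the untreated arrays and array 3 was the lowest. Without leaf-treated array 1 the difference was -0.39 and passed an unadjusted p under 0.05 (limma adjusted p = 0.64). All 3 clusters named *ABCF1* held the same values, so they count as 1 measurement. *ABCF2* read 5.80, 5.87 and 5.39 untreated against 5.25, 5.68 and 5.24 leaf-treated, a difference of -0.30 ± 0.17 with groups that overlapped (limma adjusted p = 0.56). The *ABCF2* difference passed an unadjusted p under 0.05 without leaf-treated array 2 (-0.44) and without untreated array 3 (-0.45). *ABCF3*, whose yeast relative acts with the amino acid sensor kinase, read 5.67, 5.65 and 5.66 untreated against 5.40, 5.72 and 5.67 leaf-treated, and only leaf-treated array 1 was low. The 4 genes of E and F had a median of -0.28, and -0.16 after quantile normalization, when 3 of the 4 were still below 0.

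**Figure D2:**
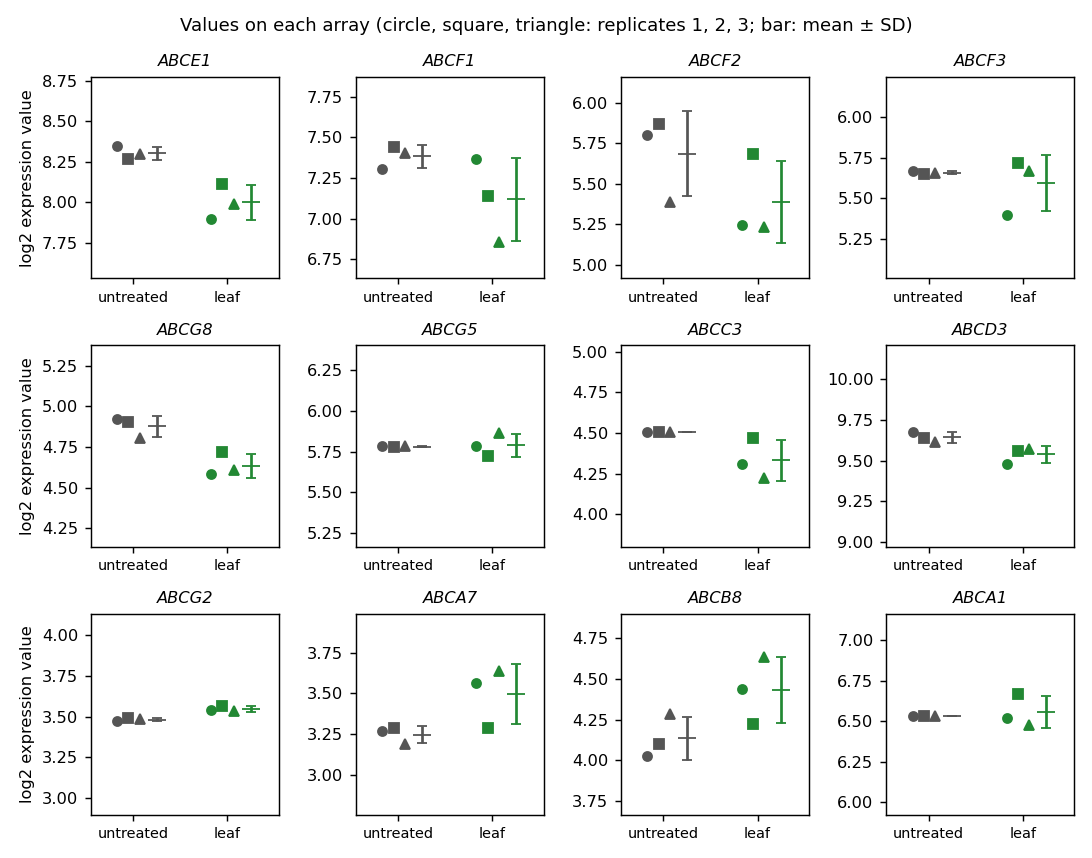
Log2 expression value on the y axis of 12 ABC genes on each untreated (grey) and leaf-treated (green) array, all panels spanning the same number of log2 units, with circle, square and triangle for replicates 1, 2 and 3 and the bar for mean ± SD. The groups do not overlap for *ABCE1*, *ABCG8*, *ABCC3* and *ABCD3*, where leaf-treated arrays are lower, and for *ABCG2*, where they are higher by 0.07.

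The partners of these factors were examined from a list of 15 genes of ribosome recycling, release and initiation, all of which were measured. Of the 15, 14 had a log2 fold change below 0, 2 passed an unadjusted p under 0.05 in the lower direction, none in the higher, and none was called after adjustment. Over all tested clusters 46.9% were below 0 and 5.9% passed in the lower direction, and among clusters at the levels of most of these genes 68.8% (mean of 5 to 7), 77.7% (7 to 9) and 78.5% (above 9) were below 0. The median was -0.21, beside 0.011 over all clusters, and it was -0.12 after quantile normalization with 73.3% of the genes below 0. *DHX29*, a helicase that helps the small subunit scan structured messages, read 5.86, 5.60 and 5.67 untreated and 5.02, 5.45 and 4.73 leaf-treated (-0.65 ± 0.18, limma adjusted p = 0.46). *GSPT1*, the termination factor eRF3a, read 9.24, 9.06 and 9.18 against 8.67, 8.96 and 8.95 (-0.30 ± 0.10, limma adjusted p = 0.51). Array by array, the median difference of the list was -0.28, -0.05 and -0.21 on leaf-treated arrays 1, 2 and 3, so that it was nearest to 0 on the array with the widest range of values. The part of that difference between arrays in the list's shift was not tested.

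*ABCG8* and *ABCG5* encode the 2 subunits of one sterol exporter, which moves cholesterol and plant sterols into bile and works only as a pair. *ABCG8* read 4.92, 4.91 and 4.80 on the untreated arrays and 4.58, 4.72 and 4.61 on the leaf-treated arrays, with every leaf-treated array lower. The difference was -0.24 ± 0.07 (limma adjusted p = 0.47) and was -0.24 after quantile normalization too. It passed an unadjusted p under 0.05 in the 16 alternative settings with more than 1 treated array, and was -0.16 with leaf-treated array 2 alone. *ABCG5* read 5.78, 5.77 and 5.78 untreated against 5.78, 5.72 and 5.86 leaf-treated, a difference of 0.01 with a 95% interval of -0.15 to 0.16. After quantile normalization the *ABCG5* difference was 0.10, and 0.20, past an unadjusted p under 0.05, when leaf-treated array 2 was left out as well (limma adjusted p = 0.28). Taken on each array, *ABCG8* minus *ABCG5* was lower in the leaf-treated arrays by a mean of -0.25 and its groups did not overlap, with an exact two-sided permutation p of 0.1, the smallest that 3 against 3 arrays can give. This contrast was chosen after the values were seen.

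From their listed start sites both genes are read outward from a common stretch of chromosome 2, so the sequence around these sites is shown. The RefSeq span of *ABCG5* runs past the start site of *ABCG8*, so the gene spans overlap and the bases marked below lie inside that of *ABCG5*. The window (RefSeq, GRCh38.p14, chr2:43838721-43839020, plus strand) runs from 250 bases before to 50 bases after the start site of *ABCG8*. Capitals mark the 131 bases between that start site and the listed *ABCG5* start site on the other strand.
ABCG8: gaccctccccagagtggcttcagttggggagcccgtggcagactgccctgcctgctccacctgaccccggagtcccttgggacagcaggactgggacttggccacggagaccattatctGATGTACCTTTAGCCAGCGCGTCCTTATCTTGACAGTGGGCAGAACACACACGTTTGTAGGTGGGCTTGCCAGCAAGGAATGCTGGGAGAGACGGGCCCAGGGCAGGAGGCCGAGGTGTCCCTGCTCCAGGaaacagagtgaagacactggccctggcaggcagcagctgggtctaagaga
The promoter windows of the pair share 231 bases. The array values do not tell which start site was used.

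The window of *ABCE1* (RefSeq, GRCh38.p14, chr4:145098061-145098360, plus strand) is shown because this gene had the lowest p of the family. Capitals mark the 4 matches to GCGTG, the core of the sites that the aryl hydrocarbon receptor binds, on either strand, and the 1 match to TGACGTCA, the cyclic AMP response element, which was searched for after the sequence had been seen.
ABCE1: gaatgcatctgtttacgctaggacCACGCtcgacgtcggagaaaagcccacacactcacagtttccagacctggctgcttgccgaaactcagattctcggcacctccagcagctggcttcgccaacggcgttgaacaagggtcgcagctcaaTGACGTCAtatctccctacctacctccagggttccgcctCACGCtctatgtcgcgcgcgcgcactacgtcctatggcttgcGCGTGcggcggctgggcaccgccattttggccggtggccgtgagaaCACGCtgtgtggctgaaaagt
Windows were listed for 34 of the 42 genes, 51 windows in all. Some genes had several windows, and some windows share DNA, as in *ABCG2*, so the same match can be counted more than once. GCGTG was found on either strand in 45.1% of them and in 36.5% of all 35116 windows, and TGACGTCA in 1.96% and 1.85%. The antioxidant response element letters TGACNNNGC stood in 23.5% of the family's windows against 13.3% of all, the E-box letters CACGTG in 17.6% against 7.26%, and CCAAT in 23.5% against 34.6%. GGGCGG (49% against 45%), TATAAA (15.7% against 11.5%) and CCGGAAG (9.8% against 10.3%) were also counted, and a match is only a run of letters. TGACNNNGC and TGACGTCA share the letters TGAC, and CACGTG and GCGTG share CGTG, but no motif contains another. Neither window shown above holds TGACNNNGC or CACGTG.

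The other genes of subfamily G were *ABCG1*, *ABCG2* and *ABCG4*. *ABCG2*, the breast cancer resistance protein, read 3.47, 3.49 and 3.49 untreated and 3.54, 3.57 and 3.53 leaf-treated, so that every leaf-treated array was higher, by 0.07 ± 0.06 (limma adjusted p = 0.67). The 3 untreated values lay within 0.02 of each other, and the wider SE is limma's, which borrows the spread of all clusters. After quantile normalization the *ABCG2* groups overlapped and the difference was -0.01. *ABCG4*, a sterol transporter best known in brain, had the same value on all leaf-treated arrays (3.32), and 3.32, 3.48 and 3.46 on the untreated ones (-0.10, limma adjusted p = 0.60). *ABCG1*, which passes cholesterol to high density lipoprotein, was not above the olfactory receptor level, with 2.77 to 3.001 over all arrays.

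Counting groups that did not overlap, 4 ABC genes were lower on every leaf-treated array (*ABCC3*, *ABCD3*, *ABCE1* and *ABCG8*) beside 7.41% of all clusters, and 1 was higher (*ABCG2*) beside 6.14%. After quantile normalization 6 were lower (*ABCA3*, *ABCA5*, *ABCC3*, *ABCE1*, *ABCG4* and *ABCG8*) beside 9.49% of all clusters and 1 was higher (*ABCA1*) beside 6.76%. *ABCC3*, *ABCE1* and *ABCG8* were in both counts.

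In subfamily A, which holds lipid transporters, 9 of 12 genes were above 0 and the median was 0.04. *ABCA7* read 3.27, 3.29 and 3.19 untreated against 3.57, 3.29 and 3.64 leaf-treated, so that leaf-treated array 2 equalled the highest untreated array and the other 2 arrays made the difference (0.25 ± 0.10, limma adjusted p = 0.51). It was no longer below 0.05 in 13 of 17 alternative settings, which include leaving out any one of the untreated arrays or leaf-treated array 1 or 3. Its difference was 0.35 without leaf-treated array 2 (limma adjusted p = 0.095) and 0.04 with that array as the only treated one. The untreated mean of *ABCA7*, 3.25, was below the olfactory receptor level of 3.28. Its mean over all arrays, 3.37, was above that level only through the leaf-treated arrays. *ABCA1*, which lipidates apolipoprotein A-I, read 6.53 on all untreated arrays and 6.52, 6.67 and 6.48 on the leaf-treated arrays, with array 2 alone above them (0.02 ± 0.07, 95% interval -0.15 to 0.20). With quantile normalization every leaf-treated array of *ABCA1* was above every untreated one, and the difference was 0.14 (limma adjusted p = 0.53). *ABCA3*, the lipid transporter of lung surfactant, read 3.35, 3.50 and 3.40 against 3.21, 3.31 and 3.35 (-0.13, limma adjusted p = 0.56).

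The sterol genes around *ABCA1* and the ABCG pair were examined from a list as well. Of 17 listed genes of the liver X receptor and SREBP programmes, 13 were measured and none passed an unadjusted p under 0.05 in either direction. Their median was -0.02, with 53.85% below 0. After quantile normalization the median was 0.02 and 23.08% were below 0, beside 50.74% of all clusters. *NPC1*, which releases cholesterol from lysosomes, read 4.97, 5.01 and 4.91 untreated against 5.15, 5.40 and 5.03 leaf-treated (0.23 ± 0.10, limma adjusted p = 0.51). *APOA1*, the acceptor for *ABCA1*, read 8.24, 8.44 and 8.33 against 8.16, 8.28 and 8.09 (-0.16 ± 0.09, limma adjusted p = 0.53).

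A run of 5 subfamily A genes, *ABCA5*, *ABCA6*, *ABCA8*, *ABCA9* and *ABCA10*, lies side by side on chromosome 17. Their log2 fold changes ran from -0.12 to 0.13, 2 of the 5 were below 0, and *ABCA5* was the only 1 of them above the olfactory receptor level, with values from 4.20 to 4.47. *ABCC11* and *ABCC12*, neighbours on chromosome 16, were both at 2.79 to 3.15 and both not above that level. Neighbours of this kind are close in sequence, and whether their probes read each other's transcripts was not tested.

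Subfamily B holds the bile and drug exporters and the mitochondrial transporters. *ABCB1*, the drug exporter P-glycoprotein, read 5.14, 5.14 and 4.96 untreated and 5.21, 5.24 and 5.08 leaf-treated (0.10 ± 0.08, 95% interval -0.10 to 0.30), with groups that overlapped. *ABCB4*, which flips phosphatidylcholine into bile, read 4.40, 4.29 and 4.28 against 3.97, 4.84 and 4.27. Its leaf-treated arrays ranged over 0.87, the widest of the family, and fell on both sides of the untreated arrays. *ABCB11*, the bile salt export pump, was not above the olfactory receptor level, with 2.57, 2.81 and 2.70 against 2.62, 3.004 and 2.78.

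*ABCB8*, a transporter of the inner mitochondrial membrane, had the highest log2 fold change of the family. It read 4.02, 4.10 and 4.28 untreated against 4.44, 4.22 and 4.63 leaf-treated (0.30 ± 0.12, limma adjusted p = 0.51), and leaf-treated array 2 lay below untreated array 3. Without leaf-treated array 2 the difference was 0.40 (limma adjusted p = 0.15), and without untreated array 3 it was 0.37 (limma adjusted p = 0.71), both past an unadjusted p under 0.05, which the value from all arrays just missed. Its 3 clusters gave 0.30, 0.33 and 0.03, so the third did not show the difference. The cluster at 0.33 had an SE of 0.24 and groups that overlapped. It read 3.43, 3.06 and 3.26 untreated against 3.48, 3.17 and 4.11 leaf-treated, so that leaf-treated array 3 made most of its difference. *ABCB6*, a porphyrin transporter, read 5.13, 5.50 and 5.19 against 5.19, 5.19 and 4.83 (-0.20 ± 0.14), and *ABCB10*, needed for haem synthesis, read 3.90, 4.05 and 4.05 against 3.86, 3.96 and 3.99 (-0.06 ± 0.08). Both overlapped between groups. Of 19 listed mitochondrial iron-sulphur and haem genes outside the family, 17 were measured, none passed an unadjusted p under 0.05, and the median was -0.08. The smallest p belonged to *ALAS1*, the first enzyme of haem synthesis, at 7.24, 7.39 and 7.12 against 7.47, 7.72 and 7.29 (0.24 ± 0.13, limma adjusted p = 0.54), followed by *CPOX*, a later enzyme of that pathway (0.16 ± 0.08, limma adjusted p = 0.54).

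Subfamily C holds the exporters of glutathione and glucuronide conjugates and the sulphonylurea receptors. *ABCC2*, the canalicular exporter of conjugated bilirubin, was read at 9.13, 9.14 and 9.27 untreated and 8.99, 9.39 and 9.02 leaf-treated (-0.05 ± 0.12, 95% interval -0.33 to 0.24). *ABCC1*, its widely expressed relative, read 6.24, 6.24 and 6.03 against 5.85, 6.53 and 6.07 (-0.02 ± 0.18). In both genes leaf-treated array 2 was above all untreated arrays and leaf-treated array 1 below them. *ABCC3*, the exporter of conjugates to the blood side, was lower on every leaf-treated array, with 4.51 on all untreated arrays and 4.31, 4.47 and 4.22 leaf-treated (-0.17 ± 0.08, limma adjusted p = 0.51). Without leaf-treated array 2 that difference was -0.24 and passed an unadjusted p under 0.05 (limma adjusted p = 0.13), and with it as the only treated array it was -0.04.

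The 8 exporters of subfamily C ranged from -0.17 to 0.11, with 5 below 0 and none past an unadjusted p under 0.05. *ABCC12*, one of the chromosome 16 neighbours, had the second lowest p of the subfamily, with 2.79, 2.82 and 2.82 against 2.96, 2.98 and 2.82 (0.11, limma adjusted p = 0.58). The sulphonylurea receptors *ABCC8* and *ABCC9* and their potassium channel partners *KCNJ8* and *KCNJ11* were all not above the olfactory receptor level, and none passed an unadjusted p under 0.05.

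In subfamily D, the peroxisomal importers of fatty acids, *ABCD3* read 9.68, 9.64 and 9.61 untreated and 9.48, 9.56 and 9.57 leaf-treated. Every leaf-treated array was lower, and the difference was -0.10 ± 0.06 (limma adjusted p = 0.57). After quantile normalization the groups overlapped and it was -0.01. *ABCD2* was not above the olfactory receptor level, with 2.77, 2.77 and 2.67 against 2.98, 2.88 and 2.77 (0.14, limma adjusted p = 0.55), and *ABCD4*, a lysosomal protein of vitamin B12 export, differed by -0.02. Without leaf-treated array 3, *ABCD2* (0.19) and *ABCC12* of subfamily C (0.16) passed an unadjusted p under 0.05. Of 16 listed peroxisomal genes outside the family, 13 were measured, 10 were below 0, and 2 passed an unadjusted p under 0.05 in the lower direction, beside 46.9% below 0 and 5.9% passing over all tested clusters and the higher shares below 0 given above for bright clusters. *CAT*, which breaks down hydrogen peroxide, read 8.31, 8.21 and 8.37 against 7.99, 8.13 and 7.96 (-0.26 ± 0.08, limma adjusted p = 0.47). *PEX3*, which helps insert peroxisomal membrane proteins, read 6.64, 6.36 and 6.74 against 6.31, 6.18 and 5.91 (-0.45 ± 0.14, limma adjusted p = 0.48). The median of the list was -0.15 both as deposited and after quantile normalization.

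**Figure D3:**
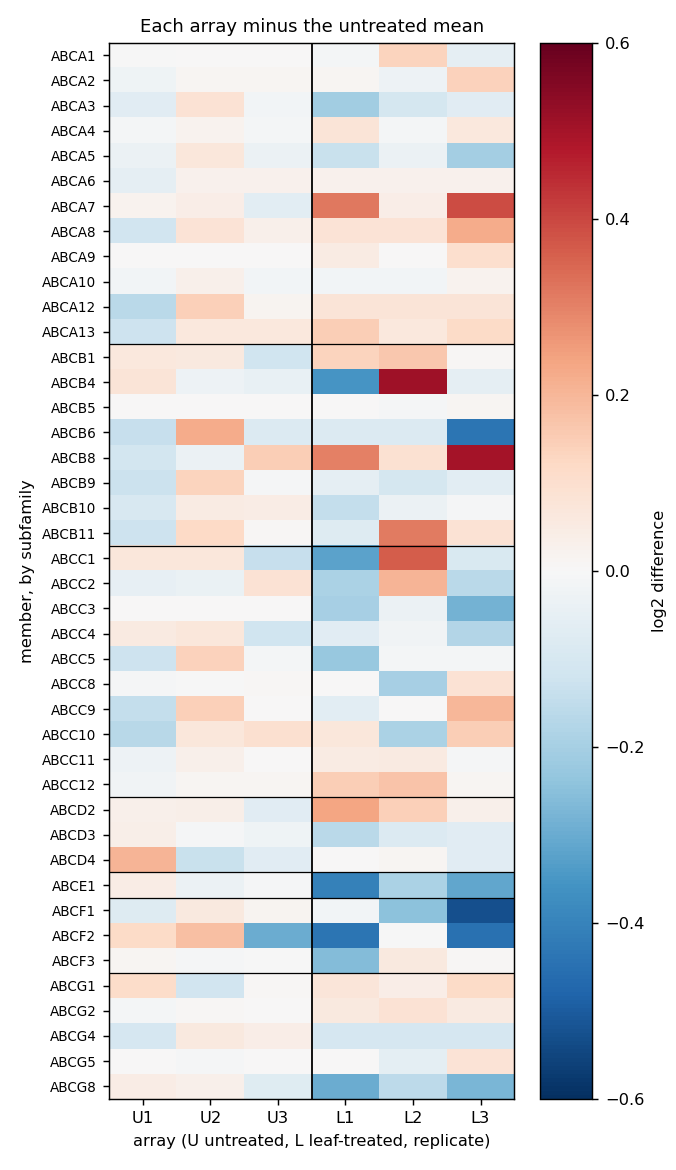
Difference of each array from the untreated mean of the same gene (colour scale, log2 units from -0.6 to 0.6) for the 42 ABC genes in rows, with untreated arrays U1 to U3 and leaf-treated arrays L1 to L3 in columns and black lines between subfamilies. *ABCE1* and *ABCG8* are blue on all leaf-treated arrays, *ABCA7* and *ABCB8* are red on L1 and L3 and paler on L2, and *ABCB4*, *ABCC1* and *ABCC2* are red on L2 but not on L1 or L3.

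Leaf-treated array 2 was the highest of the treated arrays in 14 of the 27 ABC genes above the olfactory receptor level (51.9%), beside 46.7% of all clusters above it. Leaving it out gave 4 ABC genes lower at an unadjusted p under 0.05 (*ABCC3*, *ABCE1*, *ABCF2* and *ABCG8*) and 2 higher (*ABCA7* and *ABCB8*), beside 11.7% and 8.28% of all clusters. Quantile normalization gave 3 lower (*ABCA3*, *ABCE1* and *ABCG8*) beside 5.38% and 0 higher beside 4.57%, and centring each array on its median gave 4 lower (*ABCC3*, *ABCE1*, *ABCF1* and *ABCG8*) beside 9.72% and 0 higher beside 1.95%. The analysis of variance named by the series design gave 3 lower (*ABCD3*, *ABCE1* and *ABCG8*) beside 3.67% and 1 higher (*ABCG2*) beside 2.48%, and called 0 clusters after adjustment. *ABCE1* and *ABCG8* were the only genes in all 4 of these counts, and no ABC gene was called after adjustment in any of them.

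Genes known to take up the substrates of ABC exporters, or to control ABC genes, were listed apart from the family. Of 17 uptake carriers and bile acid genes, 16 were measured, with a median of 0.0068. At an unadjusted p under 0.05, 0 were lower and 1 was higher, beside 5.9% and 3.87% of all tested clusters. That one was *SLC51A*, a subunit of the basolateral bile acid exporter, at 3.29, 3.20 and 3.27 against 3.57, 3.37 and 3.68 (0.29 ± 0.09, limma adjusted p = 0.49). Untreated arrays 2 and 3 of *SLC51A* lay below the olfactory receptor level of 3.28, and untreated array 1 was close to it. *CYP27A1*, a bile acid synthesis enzyme, differed by -0.33 ± 0.19 with untreated array 1 alone high. Of 17 nuclear receptors and sensors, 12 were measured and 1 passed in each direction, beside the same shares of all clusters. *NFE2L2*, the antioxidant transcription factor NRF2, read 9.22, 9.04 and 9.21 untreated against 8.63, 8.74 and 8.73 leaf-treated (-0.45 ± 0.08, limma adjusted p = 0.33). *NR0B2*, the bile acid responsive repressor SHP, read 6.06, 5.78 and 5.98 against 6.19, 6.69 and 6.26 (0.44 ± 0.15, limma adjusted p = 0.50). Among the receptors and sensors 1 gene (*NFE2L2*) was lower and 2 (*NR0B2* and *NR1I3*) were higher with groups that did not overlap. Among the carriers and bile acid genes 0 were lower in this way and 2 were higher, *SLC51A* and *CYP7A1*, the latter not above the olfactory receptor level. Over all clusters 7.41% were lower and 6.14% higher without overlap.

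**Figure D4:**
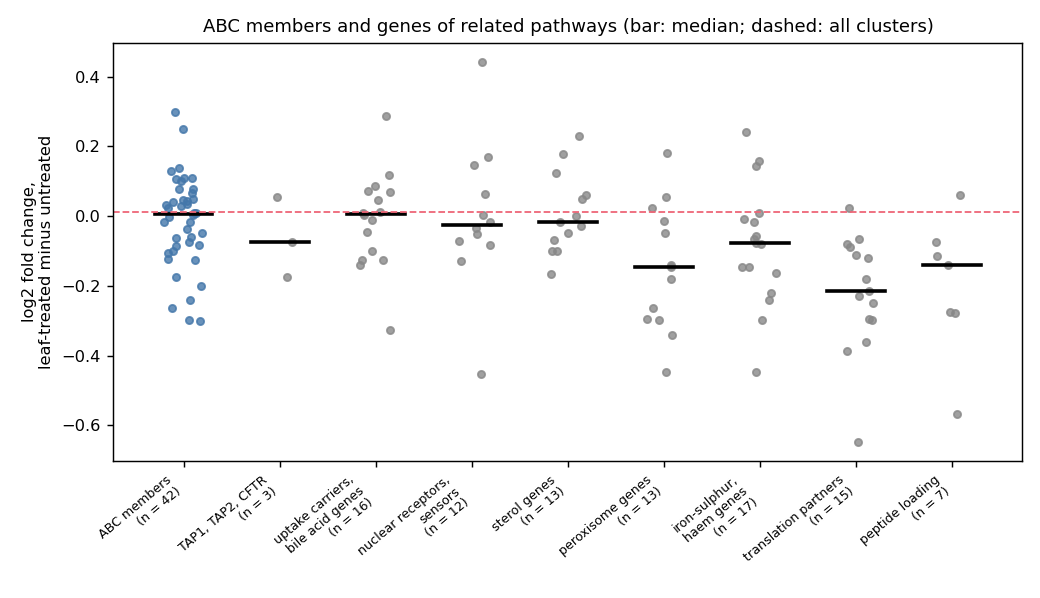
Log2 fold change, leaf-treated minus untreated, on the y axis for the 42 ABC genes (blue) and the measured genes of 8 related lists (grey), with a bar for each median and a dashed line for the median of all tested clusters at 0.011. The ABC genes are centred on the dashed line, and the 15 translation partners have the lowest median, -0.21.

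None of the ABC proteins known by other names passed an unadjusted p under 0.05. *TAP1* and *TAP2*, which carry peptides to MHC class I, differed by 0.06 and -0.17, and the chloride channel *CFTR* by -0.08. The *TAP2* values were 3.62, 3.55 and 3.56 untreated and 3.34, 3.63 and 3.24 leaf-treated, with arrays 1 and 3 below the untreated arrays and array 2 above them. The remaining 18 members of the family, outside the rule for genes named with every array, had log2 fold changes from -0.12 to 0.13 and unadjusted p from 0.14 to 0.97.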

How the data were processed

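HepG2 RNA was hybridised to 6 arrays (3 untreated, 3 leaf-treated). The deposited table holds log2 expression values of the 6 arrays; GCOS, Partek and RMA are named in the submitters' processing notes, and their versions and options, and the build, were not given in the sources used here. RMA can shrink and tie values between arrays: 54.8% of ABC genes and 41.1% of clusters had a tied value. Of 33297 rows, 4468 were 0 on all arrays and were left out, and the 19291 with exactly 1 symbol in the platform annotation were tested (1735 had several, 7803 none).

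The test was limma 3.58.1 under R 4.3.3 (lmFit, eBayes, no covariate, Benjamini-Hochberg adjusted p under 0.05), after a test on simulated data. The number of arrays limits the precision. Values were given for members that passed an unadjusted p under 0.05 or whose groups did not overlap, the 2 smallest p of each subfamily, and fixed liver, lipid, mitochondrial and ribosome genes. The ABC genes, lists and tests were chosen with earlier results of these data known. Promoter sequences were from RefSeq (GRCh38.p14). Alternatives were quantile normalization, median centring, a filter on dim clusters, trend, array weights, analysis of variance, cluster choice, a replicate block and leaving out each array.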

Additional observations from a re-analysis of the deposited data

How the results depend on the processing

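In all 17 alternatives 0 ABC genes were called at an adjusted p under 0.05 (0 to 13 clusters in all). The count lower at an unadjusted p under 0.05 was 2, beside 1139 of 19291 clusters. It moved to 4 with median centring, beside 1875 clusters. With quantile normalization and no leaf-treated array 2 it moved to 6, beside 1732 clusters. Leaving out 1 array gave 2 to 4, beside 561 to 2264 clusters. The count higher was 1, beside 746 of 19291 clusters. It moved to 0 with quantile normalization (882 clusters), median centring (376) and the intensity trend (735). It was also 0 with the filter on dim clusters (532 of 12869) and all clusters above 0 (1061 of 28829). With quantile normalization and no leaf-treated array 2 it moved to 3, beside 1422 clusters. Leaving out 1 array gave 0 to 2, beside 393 to 1598 clusters. The median of 0.0053 became -0.011 with quantile normalization, -0.059 with centring, -0.064 with the dim filter and -0.027 with quantile normalization and no leaf-treated array 2, and -0.0045 to 0.022 with 1 array left out. The setting with leaf-treated array 2 as the only treated array assumed that it varies like the untreated ones. That setting, and quantile normalization with no leaf-treated array 2, were chosen after seeing the data. Cause was not tested. The replicate numbers did not pair the arrays (same-number correlations -0.11, -0.18 and 0.12). With them as a replicate block 3 ABC genes were lower, 1 was higher and 0 were called. Over all 19291 clusters 955 were lower and 726 higher in that setting. Of 404 values of 24 named genes, 25 passed p under 0.05 newly and 14 lost it; 376 kept the direction and 28, of 9 genes, took the opposite one, none of them past p under 0.05. With 3 arrays a group, the unadjusted 95% interval of the median ABC gene reached 0.19 on the log2 scale to either side. Larger differences, such as -0.30 in *ABCE1*, were not called after adjustment either.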

Other observations

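The genes that load peptides carried by *TAP1* and *TAP2* onto MHC class I were also read. Of 11 listed, 7 were measured, 6 lay below 0, 1 passed an unadjusted p under 0.05 and none was called after adjustment. Over all tested clusters 46.9% lay below 0 and 5.9% passed in the lower direction, and 68.8% to 78.5% of clusters with a mean above 5 lay below 0. *B2M*, the light chain of MHC class I, read 7.01, 6.54 and 6.54 on the untreated arrays and 6.21, 6.24 and 5.93 on the leaf-treated arrays (-0.57 ± 0.15, limma adjusted p = 0.44), with no overlap. *ERAP1*, which trims peptides in the endoplasmic reticulum, differed by -0.28 ± 0.14 (limma adjusted p = 0.54). The median of the list was -0.14, and -0.05 after quantile normalization. Among the hepatocyte markers, *TTR*, the carrier of thyroxine, was higher by 0.19 (limma adjusted p = 0.51), and the median of the 8 measured was -0.09, or -0.02 after quantile normalization.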
